A study of Mus musculus with 10 samples.

Results

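Most of the genes described here encode the cellular machinery on which the degrader dTAG-13 depends. These are Crbn, Ddb1, Cul4a, Cul4b and Rbx1, whose products form the cereblon ubiquitin ligase. The remaining gene is Fkbp1a, which encodes FKBP12, the wild-type counterpart of the degradation tag used in the study. The data were a list of accessible chromatin sites from ATAC-seq, an assay in which the Tn5 transposase inserts adapters into open DNA. A site was taken for a gene where it overlapped the gene body or the 50 kb on either side of it in the mouse genome build mm10 (GRCm38). This rule found 72 of the 153924 sites in the list, and no site fell in the windows of more than 1 of the 6 genes.

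The list came from 10 libraries, 2 for each of 5 groups. The groups were untreated cells and cells given dTAG-13 for 30 min, 4 h, 8 h or 24 h. Untreated is the name used here for the libraries labelled WT. The methods of the study give ethanol as the control for dTAG-13. All groups, the untreated one included, were immortalized mouse embryonic fibroblasts of the single clone NG3. Exon 4 of the floxed endogenous Ash2l gene had been deleted in these cells with tamoxifen-inducible Cre-ER, and a lentiviral vector supplied human ASH2L fused to FKBP12-F36V and an HA tag. ASH2L belongs to the methyltransferase complexes that act on lysine 4 of histone H3. The list joined the sites of every library and gave a chromosome, a start and an end for each. It held no value for any single library, so the depth is unknown, and the treated and untreated cells cannot be told apart in what follows. No replicate error or test could be attached to any value, and every comparison below is a description. Of 9 fibroblast marker genes, among them Col1a1, Col1a2, Thy1 and Pdgfrb, all 9 had a site within 1 kb of an annotated start, as had 70.8% of all protein-coding genes. Of 9 markers of other cell types, Epcam, Cdh5, Pecam1, Sox10 and Pou5f1 had one, and Ptprc, Cd3e, Alb and Myod1 had none.

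In the cereblon ligase, the cullins CUL4A and CUL4B are alternative scaffolds. One end of the scaffold holds the adaptor DDB1, which in turn holds the substrate receptor cereblon. The other end holds the RING protein RBX1, which brings in a ubiquitin-conjugating enzyme. dTAG-13 binds cereblon with one arm and FKBP12-F36V with the other, so that the tagged protein is ubiquitinated and then destroyed by the proteasome. FKBP12 itself is a prolyl isomerase that binds rapamycin and FK506, and the F36V exchange makes room for ligands that the wild-type protein binds poorly.

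The DNA just upstream of the annotated starts is shown first, because the main promoter sites described below lie over it or, in Cul4b, over inner starts and not the outermost one. The stretches were read from the RefSeq GRCm38.p6 genome and run 5′ to 3′ on the strand of the gene. They span up to 250 bp before the start and stop where an annotated exon of any gene begins. Capitals mark matches on either strand to a GC box (GGGCGG), NRF1 (GCGCANGCG), NFY (AGCCAAT), ETS (CCGGAAG) or EGR (GCGNGGGCG) motif. The last of these shares letters with the GC box, and no match to one overlapped a match to the other in the stretches printed. CRE (TGACGTCA), YY1 (AAGATGGCG), E-box (CACGTG), AP-1 (TGACTCA), TEAD (ACATTCC) and CTCF motifs were searched in the same way and had no match in them. For CTCF, here and below, only a fixed core string was sought, with a choice of bases at some positions. Near matches to this string were not counted, and the Crbn stretch holds a near match. The absence of a match therefore does not show that a stretch lacks a CTCF motif. The Crbn stretch lies at chr6:106800078-106800327 on the minus strand, Cul4a at chr8:13105460-13105620 on the plus strand, Rbx1 at chr15:81466046-81466295 on the plus strand and Fkbp1a at chr2:151542349-151542482 on the plus strand. Cul4b is given at its outermost start (chrX:38576197-38576446) and at an inner start under its site (chrX:38564663-38564912), both on the minus strand. This inner start is that of the non-coding transcript Cul4b-204. For Ddb1 no exon-free base lay before the outermost start, which falls within an exon of Tkfc.
Crbn: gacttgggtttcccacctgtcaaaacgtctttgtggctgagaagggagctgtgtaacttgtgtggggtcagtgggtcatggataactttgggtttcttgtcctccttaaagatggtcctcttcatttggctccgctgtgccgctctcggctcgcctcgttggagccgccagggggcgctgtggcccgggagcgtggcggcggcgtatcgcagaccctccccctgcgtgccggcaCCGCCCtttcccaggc
Cul4a: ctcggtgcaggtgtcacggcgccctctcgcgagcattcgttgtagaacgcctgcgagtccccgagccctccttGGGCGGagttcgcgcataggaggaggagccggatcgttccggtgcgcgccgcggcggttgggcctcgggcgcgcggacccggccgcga
Cul4b, outermost start: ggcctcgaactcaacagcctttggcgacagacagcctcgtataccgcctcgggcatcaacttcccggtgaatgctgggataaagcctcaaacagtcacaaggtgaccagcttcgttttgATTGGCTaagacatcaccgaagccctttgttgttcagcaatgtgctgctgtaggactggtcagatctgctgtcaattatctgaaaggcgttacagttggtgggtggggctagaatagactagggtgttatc
Cul4b, inner start: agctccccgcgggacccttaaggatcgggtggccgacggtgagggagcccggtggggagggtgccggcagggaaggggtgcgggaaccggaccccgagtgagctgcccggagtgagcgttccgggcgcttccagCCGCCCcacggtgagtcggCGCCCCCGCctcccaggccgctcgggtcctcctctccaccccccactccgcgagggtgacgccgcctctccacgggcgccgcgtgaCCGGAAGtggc
Rbx1: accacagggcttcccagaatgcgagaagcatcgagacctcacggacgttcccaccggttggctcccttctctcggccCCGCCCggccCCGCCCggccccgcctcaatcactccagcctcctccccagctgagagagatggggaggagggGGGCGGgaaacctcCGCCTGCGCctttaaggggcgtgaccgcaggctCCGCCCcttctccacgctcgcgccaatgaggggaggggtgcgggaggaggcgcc
Fkbp1a: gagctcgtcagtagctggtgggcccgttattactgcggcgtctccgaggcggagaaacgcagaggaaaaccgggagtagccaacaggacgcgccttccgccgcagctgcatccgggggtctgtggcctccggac

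Within the full 250 bp before the outermost start, a GC box was present in 3 of the 6 genes (Crbn, Cul4a and Rbx1), beside 39.0% of 21938 protein-coding genes. Rbx1 held 4 GC boxes and an NRF1 match, a motif found in 6.66% of promoters. The outermost start of Cul4b had an NFY match (8.62% of promoters) and no GC box. The inner start of the non-coding Cul4b-204 had a GC box, an EGR match (5.69% of promoters) and an ETS match (8.03%). The ETS match began 11 bp before that start. Matches before the start of the coding Cul4b-201 are not given here. In Fkbp1a no match lay in these 250 bp. Over the whole site, a GC box was present in 6 of the 7 promoter sites of the 6 genes, beside 54.4% of the 26427 promoter sites on the chromosomes, which differed in width. The second site of Cul4a, described below, was the one without it. A match to letters is no evidence that a factor was bound.

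All 6 genes had an accessible site within 1 kb of an annotated start, beside 70.8% of the protein-coding genes. In 5 of them the site lay over the outermost start, and Cul4b was the exception. A site within 1 kb of the outermost start was listed for 66.2% of protein-coding genes. Of the 42 start positions that GENCODE M21 gives for the 6 genes, 26 lay inside a site and 29 had a site within 1 kb. The share over all annotated starts is not given here.

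**Figure D1:**
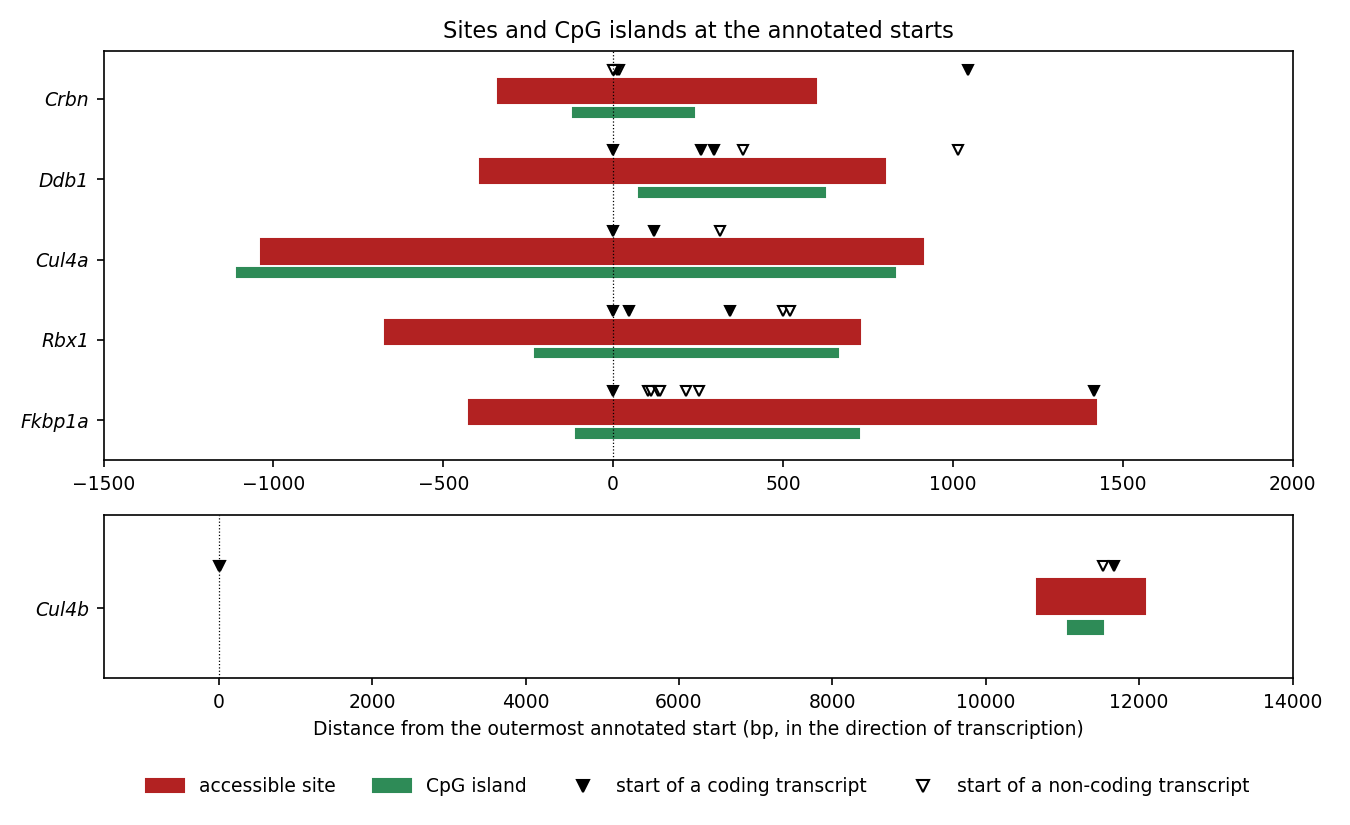
Promoter sites of the 6 genes. The x axis gives the distance in bp from the outermost annotated start in the direction of transcription, red bars are accessible sites, green bars are CpG islands and triangles are annotated starts (filled for coding transcripts, open for non-coding ones). In the upper panel every site covers the outermost start, while in the lower panel, with its own scale, the site of Cul4b begins 10675 bp inside the gene.

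The site of Crbn, the substrate receptor that dTAG-13 engages, was the narrowest of the 6. It spanned 937 bp (chr6:106799480-106800416), from 339 bp before to 597 bp after the outermost start, and held exon 1 whole. Of the genes with a promoter site, 15.9% had a narrower widest site. The start of Crbn-204, a coding transcript that begins 1044 bp inside the gene, lay 447 bp beyond the edge of the site.

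Ddb1, the adaptor between receptor and scaffold, shared its site with Tkfc, which encodes a triokinase and is transcribed from the other strand. The site spanned 1193 bp (chr19:10604935-10606127), 392 bp before and 800 bp after the Ddb1 start. The outermost starts of the 2 genes lay 327 bp apart, and their first exons overlapped head to head. Accessibility over this stretch cannot be assigned to either gene. Ddb1 has 11 annotated start positions over its 24.5 kb, and the 6 of them that lay 5094 bp or more inside the gene had no site within 1 kb.

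Cul4a, the first of the scaffolds, had the widest site, 1952 bp (chr8:13104583-13106534). It reached 1038 bp before the start, farther than in 90.1% of the 12825 genes with a site over their outermost start, for which the median was 541 bp. This site also held the start of Pcid2, which encodes a subunit of the mRNA export complex TREX-2 and begins 162 bp away on the other strand. Such a start of a coding gene on the other strand was found in the promoter sites of Ddb1 and Cul4a, 2 of the 6 genes, beside 16.3% of protein-coding genes with a promoter site.

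Cul4a was also the only one of the 6 genes with a second site counted as a promoter site, beside 30.6% of protein-coding genes with a site that had 2 or more. This site of 687 bp (chr8:13143508-13144194) lay 37.9 kb into the gene, 31 bp from the start of the non-coding transcript Cul4a-204. It held no CpG island, 46.9% of its bases were repeats and it carried a match to the CTCF motif. CTCF is an insulator protein that anchors chromatin loops. The match is shown in capitals with 10 bp on either side (chr8:13143940-13143971, plus strand). It was the only match to the CTCF string in the promoter or distal sites of the 6 genes, near matches not counted.
Cul4a, intronic site: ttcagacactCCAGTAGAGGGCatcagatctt

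Cul4b, the X-linked paralog of Cul4a, had no site at its outermost start. That start (chrX:38576196) was 10675 bp from the nearest site and had no CpG island within 1 kb. The only site in the body of Cul4b spanned 1402 bp (chrX:38564120-38565521) and covered 2 inner starts, 11534 and 11671 bp into the gene, of which the farther belongs to the coding transcript Cul4b-201. A site only at a start other than the outermost was found in 6.53% of protein-coding genes with a promoter site.

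The inner site of Cul4b overlapped exons 3 and 4 of the principal transcript Cul4b-203, which begins at the outermost start. Of the 2910 coding bp of that transcript, 61 lay upstream of the site and 263 inside it. Cul4b-201 has 2688 coding bp and its coding sequence begins at chrX:38564221, inside the site. The base composition of the 250 bp before the starts differed as well. The GC content was 50.8% before the outermost start, 68.0% before the inner start of the coding Cul4b-201 and 75.6% before that of the non-coding Cul4b-204, and the last exceeded the outermost-start value of 96.4% of protein-coding genes. RefSeq lists the start at chrX:38576196 and neither inner start, so that with its annotation Cul4b counted as a gene with no promoter site.

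Rbx1, the RING subunit, had a site of 1400 bp (chr15:81465624-81467023), 672 bp before and 727 bp after the outermost start, with 5 of its 6 starts inside. Fkbp1a had a site of 1846 bp (chr2:151542058-151543903) that was lopsided, with 425 bp before and 1420 bp after the start. It reached farther downstream than in 89.4% of genes, for which the median was 818 bp, and covered exons 1 and 2. It also held the start of the antisense RNA gene Gm14167, 135 bp from that of Fkbp1a. Transposase cuts carry no strand, so the openness of the 2 starts could not be told apart.

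The widths of the 6 widest promoter sites had a median of 1401 bp, beside 1412 bp for the 15530 protein-coding genes with a promoter site (quartiles 1107 and 1753 bp). Rbx1 and Cul4b sat at the middle of that distribution, Crbn below its lower quartile, and Fkbp1a and Cul4a above its upper quartile. How the sites of the libraries were joined is not given, and the width of a joined site does not measure how open the DNA was in any library.

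CpG islands are stretches of DNA rich in unmethylated CpG dinucleotides that mark the promoters of most broadly expressed genes. An island lay within 1 kb of a start in all 6 genes, beside 57.8% of protein-coding genes. Their lengths were 356 bp at Crbn, 549 bp at Ddb1, 1936 bp at Cul4a, 457 bp at Cul4b, 891 bp at Rbx1 and 834 bp at Fkbp1a. Each island lay within the promoter site entirely, except that of Cul4a, of which 96.5% did. The island of Cul4b belonged to its inner starts, from 11078 to 11534 bp into the gene. Under stricter criteria for an island, 4 of the 6 genes had one, beside 38.7% of protein-coding genes, and Crbn and Cul4b did not.

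Within their windows the 6 genes had between 8 and 19 sites. Of the 72 sites, 26 lay upstream, 9 in gene bodies and 37 downstream. By class, 7 were promoter sites of the 6 genes, 13 lay within 1 kb of a start of another gene and 52 were distal. Of all sites on the chromosomes, 26427 lay within 1 kb of a start and 127255 were distal. Over all protein-coding genes the median number of sites in the body was 2. Crbn, Ddb1 and Fkbp1a had no site in the body other than the promoter site, and Cul4b none other than its inner one. Rbx1 had 1 more site in its body, and Cul4a had 2 more.

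**Figure D2:**
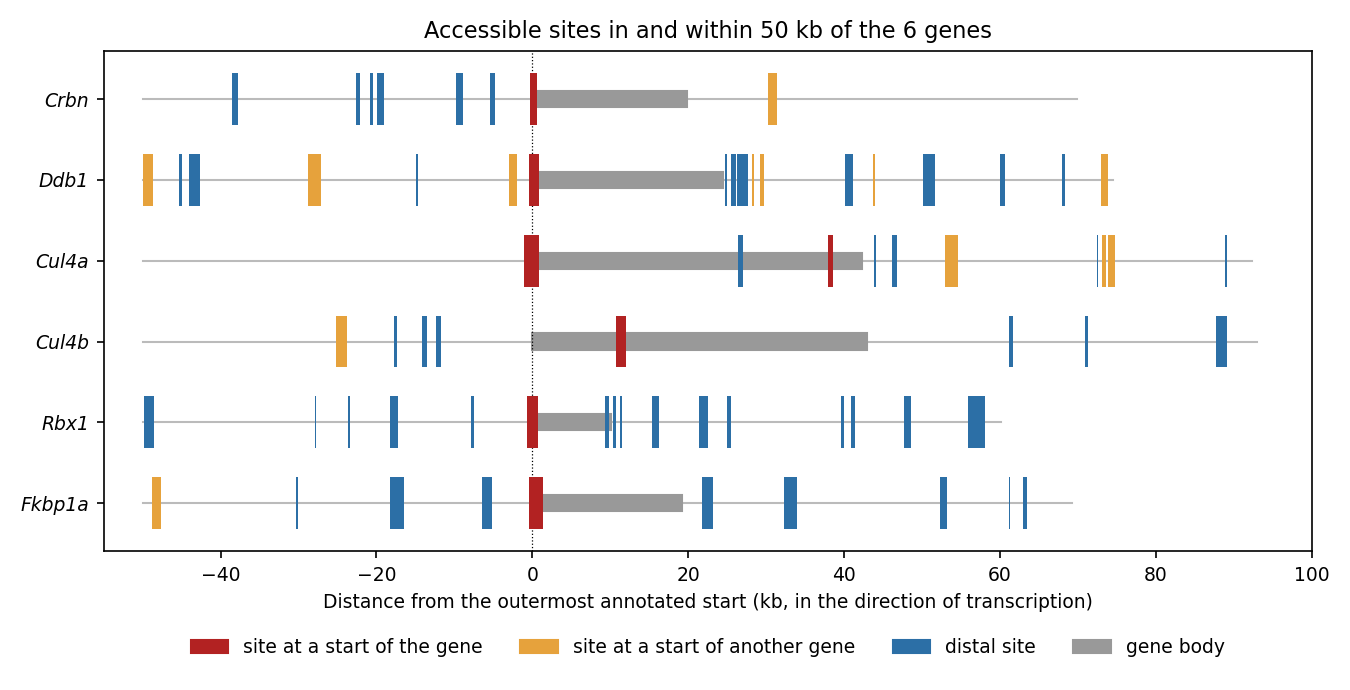
Sites in the windows of the 6 genes. The x axis gives the distance in kb from the outermost annotated start in the direction of transcription, grey bars are gene bodies, and coloured bars are sites at a start of the gene (red), at a start of another gene (orange) or distal (blue). The 8 sites of Crbn include 6 distal ones, all upstream, and Cul4a has no site upstream of its promoter site.

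Crbn had 8 sites in 120 kb, or 6.67 sites per 100 kb. All of its 6 distal sites lay upstream, between 4.74 and 38.5 kb from the start, and were 417 to 840 bp wide. Downstream there was a single site, at the promoter of Trnt1, which encodes the enzyme that adds CCA ends to tRNAs. No site was listed in the last 38.5 kb of the downstream flank.

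The Ddb1 window held 19 sites, or 15.3 per 100 kb, more than in 89.9% of all protein-coding genes and in 88.5% of the 719 genes of chromosome 19. Of these sites, 7 lay at starts of other genes, namely Tmem216, Tmem138 with Cyb561a3, Tkfc, Vwce and Pga5. A row of 4 distal sites stood between 24.7 and 27.7 kb from the start, just past the end of the gene. The gene body downstream of the promoter site held no site, and the longest stretch without one was 23.9 kb.

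The windows of the cullin paralogs had almost the same length, 142 kb for Cul4a and 143 kb for Cul4b, and held 10 and 8 sites. Upstream they differed, since Cul4a had no site in 49.0 kb before its promoter site while Cul4b had 4 sites upstream of its outermost start. Downstream of the Cul4a body lay the promoter sites of Lamp1, a lysosomal membrane protein, and Grtp1. Upstream of Cul4b lay that of Mcts1, a translation factor. The longest stretch without a site in the Cul4b window, 49.1 kb, covered most of the gene body and its end.

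The Rbx1 window held 17 sites in 110 kb, or 15.4 per 100 kb, and none of them lay at a start of another gene. This density exceeded that of 90.6% of all protein-coding genes but only 56.2% of the 785 genes of chromosome 15, whose median was 14.9. Fkbp1a had 10 sites, or 8.39 per 100 kb, and 51.5% of the genes of chromosome 2 had a lower density. The 4 sites upstream of it included the promoter site of Nsfl1c, a cofactor of the segregase p97.

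**Figure D3:**
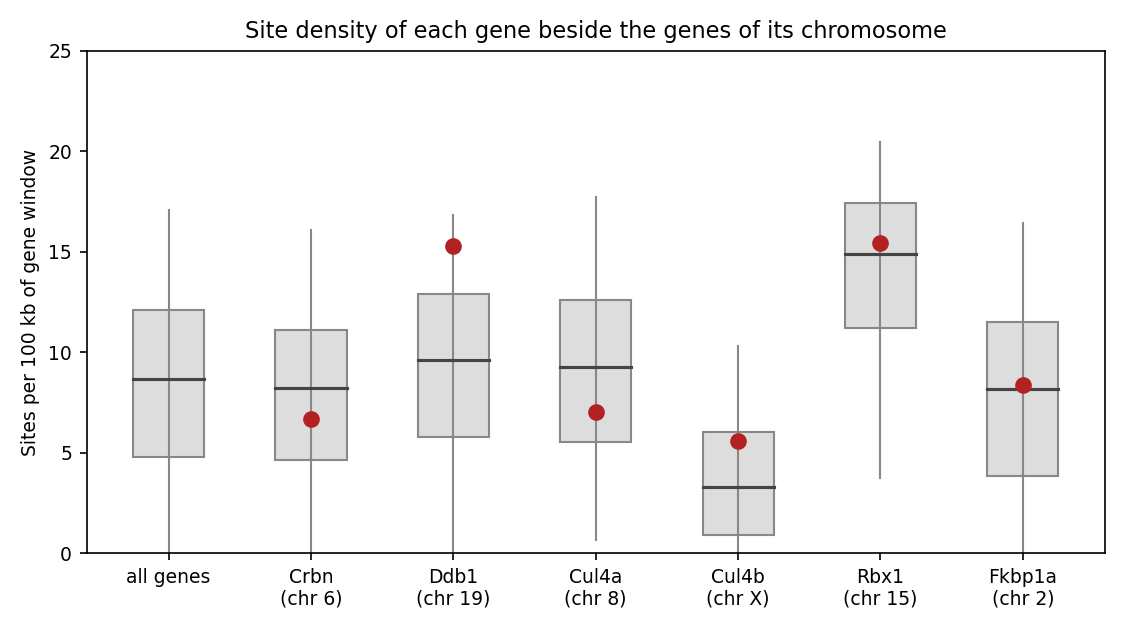
Site density of the windows. The y axis gives sites per 100 kb of gene window, red points are the 6 genes, and the grey boxes give the median and quartiles, with lines from the 5th to the 95th percentile, of all protein-coding genes or of the genes of the same chromosome. Rbx1 (15.4) lies near the median of chromosome 15 (14.9), Ddb1 (15.3) above the upper quartile of chromosome 19, and Cul4b (5.60) above the median of the X chromosome (3.28).

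Of the 6 genes, Cul4b changed its place most between all genes and those of its own chromosome. It had the lowest density of the 6, 5.60 per 100 kb, and exceeded 29.1% of all genes but 70.9% of the genes of the X chromosome. Crbn exceeded 35.7% of all genes and 37.7% of those of chromosome 6, and Cul4a (7.03 per 100 kb) 38.3% and 33.4% of those of chromosome 8. The median of the 6 genes was 7.71 per 100 kb, beside 8.66 for all protein-coding genes (quartiles 4.79 and 12.1). The direction turned when covered bases were counted in place of sites, with 7.42% for the 6 genes and 6.68% for all genes. It also turned when sites narrower than the median of 619 bp were dropped, with 5.68 and 4.65 sites per 100 kb.

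The 52 distal sites of the 6 genes were 195 to 2248 bp wide, with a median of 555 bp, beside 565 bp for all 127255 distal sites. Their median GC content was 44.2%, beside 44.4%. A median of 29.7% of their bases were repeats, beside 12.0%. In introns of other or the same genes lay 13 of them, 4 over exons and 35 outside annotated genes. These counts are description only, since the shares over all distal sites are not given here.

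The widest distal site of each gene ranged from 644 to 2248 bp. At Rbx1 it was 2248 bp wide (chr15:81522129-81524376), 55.8 kb downstream of the start, and overlapped a CpG island although the nearest annotated start was 22584 bp away. At Fkbp1a it was 1813 bp (chr2:151524210-151526022), 16.5 kb upstream, and at Ddb1 1521 bp (chr19:10655455-10656975), inside Vwce. At Cul4b it was 1361 bp (chrX:38487093-38488453), of which 90.5% were repeats. Crbn and Cul4a had narrower ones, of 840 bp (chr6:106808978-106809817) and 644 bp (chr8:13132043-13132686).

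AP-1, the dimer of FOS and JUN proteins, binds many distal elements of fibroblasts. In the middle 200 bp of the distal sites of the 6 genes its motif was found in 2 of 52, or 3.85% (95% Wilson interval 1.06 to 12.98%, counting error alone), beside 16.3% of all distal sites. Over the whole site the share was 28.8%, 15 of 52, beside 31.0%. The result thus rested on where in the site the motif was sought. Sites of 1 gene and of its neighbours are not independent draws, and no test was made. Both central matches are shown with 10 bp on either side and the motif in capitals, on the plus strand. The first lies in the site nearest to Crbn, 4741 bp upstream of its start (chr6:106805083-106805109), and the other 70.9 kb downstream of the start of Cul4b (chrX:38505069-38505095).
Crbn, distal site: cataccttcaTGAGTCAccataataaa
Cul4b, distal site: ttcttgggttTGACTCAtagggtgtca

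A TEAD motif lay in the middle 200 bp of 3 of the 52 sites (5.77%), beside 6.46% of all distal sites. A match to the CTCF string lay in none, beside 3.05%. TEAD proteins are the DNA-binding partners of YAP, which is active in cultured fibroblasts. Taking 3 matches as the most that a count of 0 allows, 0 of 52 allows a share of up to 5.77%.

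Coding exons were examined because the fusion protein carries an FKBP12 domain, and Fkbp1a is the endogenous gene for FKBP12. The study does not name the species of the FKBP12 sequence in the construct. Whether reads from it align to mouse exons is therefore unknown, and nothing is concluded about the construct. The coding sequence of Fkbp1a lies in exons 1 to 4 of 5. Exons 1 and 2 lay in the promoter site, exon 3 was 6797 bp and exon 4 was 4675 bp from the nearest site. No site of the 6 genes overlapped a coding exon farther than 1 kb from an annotated start. The second site in the body of Rbx1 (chr15:81475585-81476080) overlapped exon 5, the last, only in its untranslated part. With the RefSeq starts there was 1 site over coding exons away from starts, the inner site of Cul4b.

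Genes related to the ligase, to other cullin ligases or to FKBP12 were read in the same way from 8 lists of 87 genes in all. Of these, 84 had a promoter site and 79 a CpG island, and the median width of the widest promoter site was 1517 bp. As for the 6 genes, these values stand beside 70.8% of protein-coding genes with a site and 57.8% with an island. The median width over protein-coding genes with a promoter site was 1412 bp.

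**Figure D4:**
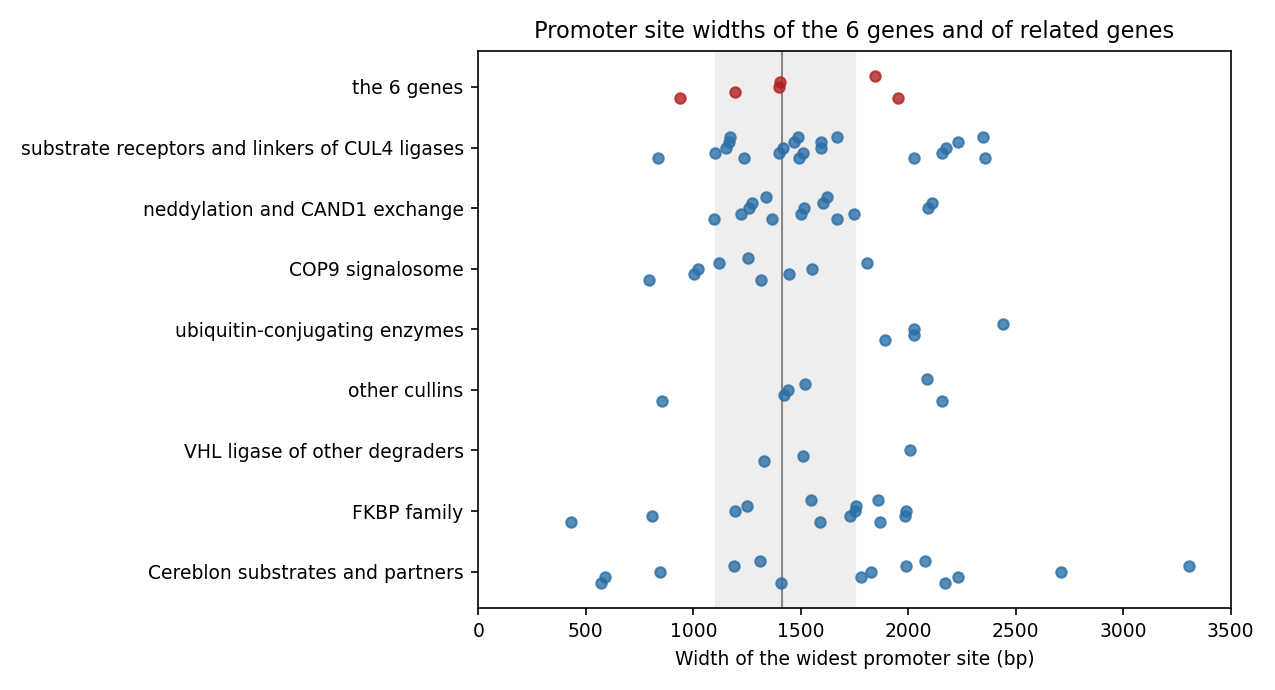
Widths of promoter sites. The x axis gives the width in bp of the widest promoter site of each gene, rows are the 6 genes (red) and 8 lists of related genes (blue), and the grey band and line are the quartiles (1107 and 1753 bp) and the median (1412 bp) of the protein-coding genes with a promoter site. The 4 ubiquitin-conjugating enzymes lie between 1891 and 2439 bp, to the right of the band.

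Among 22 other receptors and linkers of CUL4 ligases, 21 had a promoter site. The widest was that of Dcaf6 (2358 bp), a DDB1-binding WD-repeat receptor. Dcaf13, a nucleolar member of the same group, had none within 1 kb of a start. Its outermost start lay in a stretch of 590 kb of chromosome 15 without any site (chr15:38573105-39162882). In this stretch 6 protein-coding genes begin, 5 of them with a CpG island. The absence is thus not particular to Dcaf13, and why the list held no site there was not tested.

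Cullins are switched on by the attachment of NEDD8, switched off by the COP9 signalosome and exchanged between receptors by CAND1. All 14 genes for neddylation and exchange and all 9 for the COP9 signalosome had a promoter site. The widest were those of Cand1 (2111 bp) and of Gps1 (1806 bp), a signalosome subunit. Dcun1d1 and Dcun1d4, which encode NEDD8 ligases, had theirs only at an inner start, and the nearest site was 3517 and 2116 bp from their outermost starts.

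All 4 genes for ubiquitin-conjugating enzymes had a promoter site, the widest being that of Cdc34 (2439 bp). So had the 6 other cullins, with Cul3 the widest (2159 bp), and Cul5 resembled Cul4b in having its site, of 1520 bp, only at an inner start. The site of Cul5 began 1984 bp from its outermost start, beside 10675 bp in Cul4b. Among the 3 genes of the VHL ligase, which other degraders recruit, Vhl itself had the widest site (2010 bp).

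Of 15 further FKBP genes, 13 had a promoter site, with Fkbp4 the widest (1991 bp). Fkbp14 had its site only at an inner start. Fkbp6, known for its role in the germ line, had none, and the nearest site was 2733 bp from its outermost start. All 14 genes for substrates and partners of cereblon had a promoter site, and the widest was that of Arid2 (3308 bp), a subunit of a chromatin remodelling complex.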

How the data were processed

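ATAC-seq had been performed on 10 libraries. Per the labels and the methods of the study, the authors trimmed reads with Trim Galore, aligned them to mm10 with BWA, filtered them with SAMtools, merged replicates with Picard, called narrow peaks with MACS2 and used DESeq2 on the read numbers. Versions, peak-calling thresholds, the Tn5 shift and the rule for joining peaks are not given in the sources used here. The deposited table holds positions in bp of the joined sites, with no value for any library, so the planned comparison of groups, the fits without a replicate and the replicate block could not be made, and no test was run.

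Starts were read as counted from 0, and printed positions count from 1. Sites on the 19 autosomes, X and Y (153682) were set against GENCODE M21 and, as an alternative, RefSeq GRCm38.p6. A promoter site overlapped the 1 kb on either side of any annotated start by at least 1 bp. A distal site did not. The outermost start is the 5′ end of the gene. The principal transcript is the APPRIS principal one with a CCDS. A percentile is the percent of genes with a lower value, ties split evenly. CpG islands were unmasked segments of at least 200 bp with GC above 0.5 and observed to expected CpG above 0.6 (stricter: 500 bp, 0.55 and 0.65). Intervals are 95% Wilson intervals.

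Named were the 6 genes with their promoter sites and widest distal site, coding genes starting within 1 kb of those promoter sites and, of each list, genes without a promoter site and the one with the widest. A result of this rule is not reported here. Genes with a site only at an inner start, the other genes starting in the windows, Gm14167 and single further sites were added after their values were seen. The genes and lists were chosen with earlier results of these data known. The scripts ran in Python 3.11.15 (Matplotlib 3.10.9, Numba 0.67.0, SciPy 1.17.1, NumPy 2.4.6) and were tested on simulated data.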

Additional observations from a re-analysis of the deposited data

How the results depend on the processing

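The number of sites in the windows was 42 with flanks of 20 kb, 117 with flanks of 100 kb and 41 with wide sites alone (at least the median width). The median density was 8.40 and 7.21 sites per 100 kb with these flanks and 5.68 with wide sites, and covered bases were 7.42% of the windows. Relative to the median of all genes it was 0.955, 0.850, 1.22 and 1.11 times in these settings and 0.896 times with sites at most 100 bp apart merged, beside 0.890 as reported. RefSeq starts gave a median promoter width of 1400 bp and 1 site over coding exons, since Cul4b had no promoter site there. With the outermost start alone, or with RefSeq, 5 of the 6 genes had a promoter site. The AP-1 share was 28.8% over whole sites and 4.00% in wide sites, beside 31.0% and 17.8% of all such distal sites. No paired analysis was possible because none of the positions comes with values by library, and leaving out replicates was not possible for the same reason.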
